A study of Mus musculus with 12 samples.

Results

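Long intergenic noncoding RNAs (lincRNAs) expressed in mouse eosinophils were described across 12 RNA-seq libraries. Members were chosen by measured level: the rows of the deposited count table with the gene biotype lincRNA and a mean of at least 3 CPM (a gene's count as a rate of its library's total) over the 12 libraries. The rule gave 139 of 5559 lincRNA rows, of which 3170 had at least 1 count, in a table of 54532 genes. The same threshold was reached by 9411 protein-coding genes, which were not matched to the members in level. The rule used measured levels, so the levels of the members are a description. It ignored the group labels, and the comparisons between groups were tested with all genes in 1 fit.

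The cells were splenic eosinophils of IL-5tg_4get/C57BL/6 mice, sorted as SSChigh4get+ cells. All groups therefore share an interleukin-5 transgene, given here as the labels name it, and the 4get reporter of interleukin-4. Neither the promoter of the transgene nor the age of the mice is given in the sources used here. Cells were kept in medium with serum for 4 h in 4 groups of 3 libraries each. The isotype group received rat IgG2a. The antibody group received 5 µg/mL of anti-Siglec-F from rat, which binds an inhibitory sialic acid receptor of eosinophils. The IL-33 group received 10 ng/mL of recombinant mouse interleukin-33, an alarmin cytokine, and the combined group received both. Whether libraries of a group came from separate mice or cultures is not in the labels. The p-values are therefore measures of library-to-library spread only, which may be technical.

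Long noncoding RNAs are transcribed by RNA polymerase II, mostly spliced and capped, and not translated into a long protein. Some act in the nucleus, where they hold nuclear bodies together or act on genes beside them on the same chromosome. Others are precursors of microRNAs or small nucleolar RNAs, or lie over a promoter from which transcription runs both ways. In eosinophils, neutrophils and monocytes the best known is Morrbid, named Gm14005 in the table, which controls the lifespan of these cells by repressing the neighbouring gene of the death factor Bim.

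Total counts ran from 11686603 to 17137988 per library, and the members took 0.606% to 1.90% of them. All 10 eosinophil markers examined, among them Siglecf, Epx and Prg2, were found. They summed to 6245 to 11390 CPM in isotype, 6120 to 10890 with the antibody, 4801 to 7739 with IL-33 and 5328 to 12000 with both. With both, Siglecf (490 to 632 CPM, isotype 823 to 987), Ccr3, Alox15 and Il5ra lay below every isotype library. Prg2 (841 to 4602 CPM, isotype 697 to 2958), Prg3, Epx and the Ear genes overlapped isotype. The 11 monocyte and macrophage markers summed to 1640 to 1933 CPM in isotype, 2172 to 2385 with the antibody, 2635 to 3390 with IL-33 and 3057 to 3548 with both. Most of that sum was Adgre1 (1075 to 1286 CPM in isotype, 2065 to 2288 with both) and Csf1r; C1qa did not exceed 2.79 CPM in any library. No marker of that list, or of the 8 lists for other cell types, was at 0 in all libraries. The 6 basophil and mast cell markers summed to 19.7 to 37.0 CPM in isotype, 16.3 to 24.7 with the antibody, 12.2 to 19.4 with IL-33 and 8.53 to 17.1 with both. The 8 T cell markers summed to at most 42.9 CPM in the other groups and reached 94.8 in an IL-33 library. Larger sums came from neutrophil markers, 10 in number, with 899 to 2161 CPM in isotype and 968 to 2086 with the antibody. They summed to 386 to 1415 with IL-33 and 654 to 1523 with both. For the 8 B and plasma cell markers the sum was 796 to 1144 CPM in isotype and 710 to 881 with the antibody. With IL-33 that sum was 612.5 to 1262 CPM, and with both 512 to 844. The part of these cells in the differences given here was not tested, and in bulk RNA fewer cells of a type and less RNA per cell cannot be told apart.

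In the combined group, libraries 2 and 3 differed from the rest in lincRNA detection as in genes detected overall. A count was found for 500 lincRNA rows in library 2 and 2463 in library 3, against 817 to 1480 in the other 10. Nearly every member was detected in each library, so the gap lay in lincRNAs below the rule's threshold. The share of counts from ribosomal protein genes was 3.21% and 3.68% in them and 1.69% to 2.59% in the others. Leaving both out reduces the combined group to its library 1, whose spread must then be assumed equal to that of the other groups. Values given for library 1 alone describe that library and are no check between replicates. Where called members are counted in fits with libraries left out or with a block, counts over all genes are not given here. Such counts are therefore no result about lincRNAs.

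**Figure D1:**
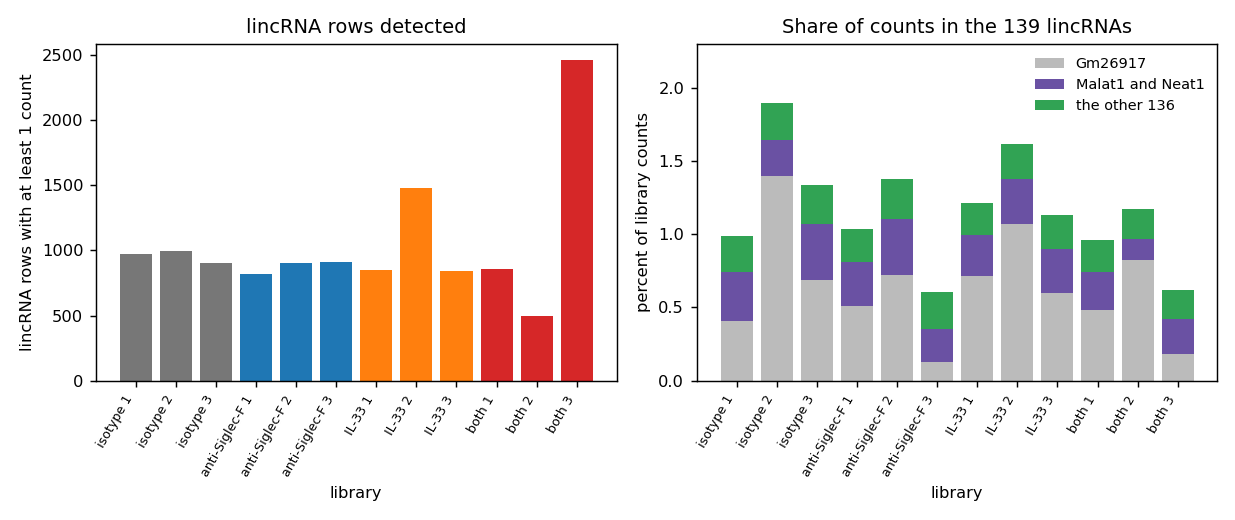
Left, lincRNA rows with at least 1 count in each library; right, percent of each library's counts in the 139 lincRNAs, split into Gm26917, Malat1 with Neat1, and the others. Detection was lowest in combined library 2 (500 rows) and highest in combined library 3 (2463), while the share of the members without Gm26917 stayed between 0.347% and 0.654%.

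A few members held most of the signal. Gm26917, Malat1 and Neat1 together made up 79.8% of the summed mean CPM of the 139, while the median member stood at 7.30 CPM, 53 members at 10 or more and 7 at 100 or more. The mean level within a group reached 3 CPM for 135 members in isotype, 134 with the antibody, 124 with IL-33 and 108 with both. It did so in all 4 groups for 101. Just inside the threshold lay Gm36287 (3.09), Gm26518 (3.09) and 4732465J04Rik (3.01 CPM), and just outside lay Gm43660 (2.99), Gm26772 (2.98) and Gm8066 (2.92 CPM).

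Most members are spliced genes of unknown role. Of the 139, 72 carry the name of a predicted model and 45 a Rik name of a cDNA clone. GENCODE M21, which is on GRCm38, held all 139 and gave the same exon length as the deposited table for 134. In it 117 had models of at least 2 exons and 22 had 1 exon. The median length was 2550 bases (269 to 20771).

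The members lay close to coding genes. The nearest protein-coding gene overlapped the member's body in 33 cases, 24 on the opposite strand and 9 on the same strand, and lay within 5 kb in 75 and within 50 kb in 111. The median gap was 3539 bases. Without overlap, 54 nearest genes had the same strand, 27 were divergent (11 with starts within 1 kb) and 25 convergent. Exon bases were shared with another gene in 51 members, with a coding gene in 19, and over more than 10% of the member's length in 29. No source used here gives the strand setting of the counting, so reads of such pairs cannot be told apart.

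Promoter windows of the members were compared with those of other genes, because regulatory sequence is among the few features by which unnamed RNAs can be compared. RefSeq windows on GRCm38.p6 (250 bases before to 50 after an annotated start) matched 61 of the 139 members by symbol, chromosome and strand, with 72 windows. Both strands were searched for letters of known sites. The site of PU.1 (GAGGAAGT), the master factor of myeloid cells, was in 11 of 72 member windows (15.3%), in 3.20% of all 32851 windows and in 3.40% of the 9653 windows of coding genes at a mean of 3 CPM or more. These 11 windows belong to 9 members, since 3 overlapping windows of F730311O21Rik show the same site. The 9 sites are printed with 10 bases on either side, 5′ to 3′ on the strand of the lincRNA, with the site in capitals, which reads ACTTCCTC where it lies on the other strand.
1810006J02Rik: attagaagaaGAGGAAGTgacttcaatt
2900076A07Rik: ctgacgtggaACTTCCTCcctacggcta
4833407H14Rik: ctttcaccaaACTTCCTCctcagaagcc
A630001O12Rik: taccgaggtaGAGGAAGTttctcaaaga
F730311O21Rik: ctgccaaaatGAGGAAGTgacactgggt
Gm14321: gcccacagagGAGGAAGTgggggttggg
Gm19951: ctccctctttACTTCCTCcttcttacca
Gm6116: agcaacagagACTTCCTCtgggatctaa
Mirt1: cctctagtaaGAGGAAGTggggtgctca

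The RefSeq starts of these windows lay within 106 bases of the deposited gene start, except that of A630001O12Rik, which lay 9787 bases away. For the other sites the shares of member windows, all windows and these coding windows follow in that order. The AP-1 site (TGANTCA) was in 9.72%, 7.81% and 4.86%, and the GATA site (AGATAA) in 13.9%, 11.2% and 6.45%. The TATA box (TATAAA) was in 12.5%, 13.6% and 6.62%. The NF-kB site was in 12.5%, 8.46% and 10.4%, the core of the antioxidant response element (TGACNNNGC) in 13.9%, 12.4% and 14.6%, and the cyclic AMP response element (TGACGTCA) in 2.78%, 1.79% and 3.18%. Median GC content was 52.0% in member windows and 61.0% in coding windows. A match is a description of the letters, not of binding.

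Whole windows are printed for 4 members on which the comparisons turn, a pair that rose and a pair that fell with both stimuli. Capitals mark a PU.1 site in 4833407H14Rik (chr19:53460372-53460671, plus strand) and the antioxidant response element core in Gm17586 (chr11:120633500-120633799, plus strand). They mark the letters of a TATA box in E230014E18Rik (chr10:84517453-84517752, plus strand), from base 113 of the window and so well before the start. They also mark an NF-kB site in F730016J06Rik (chr2:28095095-28095394, plus strand). Both are read on the other strand.
4833407H14Rik: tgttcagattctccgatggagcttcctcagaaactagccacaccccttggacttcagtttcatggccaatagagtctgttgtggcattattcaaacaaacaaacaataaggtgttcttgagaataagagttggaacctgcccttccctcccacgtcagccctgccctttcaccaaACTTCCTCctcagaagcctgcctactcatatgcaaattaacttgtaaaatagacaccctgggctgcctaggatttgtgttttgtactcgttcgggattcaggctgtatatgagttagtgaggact
Gm17586: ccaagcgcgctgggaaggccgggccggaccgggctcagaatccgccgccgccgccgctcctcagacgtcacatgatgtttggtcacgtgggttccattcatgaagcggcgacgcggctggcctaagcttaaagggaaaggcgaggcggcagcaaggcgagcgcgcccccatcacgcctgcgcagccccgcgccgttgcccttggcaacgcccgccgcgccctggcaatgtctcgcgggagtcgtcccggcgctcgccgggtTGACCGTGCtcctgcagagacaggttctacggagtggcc
E230014E18Rik: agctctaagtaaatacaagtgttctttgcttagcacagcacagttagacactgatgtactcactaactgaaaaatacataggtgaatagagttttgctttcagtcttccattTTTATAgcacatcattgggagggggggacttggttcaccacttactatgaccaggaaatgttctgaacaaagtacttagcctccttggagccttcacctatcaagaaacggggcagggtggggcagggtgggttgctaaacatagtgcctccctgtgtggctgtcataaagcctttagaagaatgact
F730016J06Rik: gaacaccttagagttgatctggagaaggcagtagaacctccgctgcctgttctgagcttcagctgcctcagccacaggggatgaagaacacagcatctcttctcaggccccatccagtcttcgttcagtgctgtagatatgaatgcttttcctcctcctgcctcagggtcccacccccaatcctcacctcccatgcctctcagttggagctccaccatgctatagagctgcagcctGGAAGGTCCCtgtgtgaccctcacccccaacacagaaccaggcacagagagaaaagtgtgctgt

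The window of Gm17586 also holds the deposited start of Mafg, a small Maf transcription factor gene on the minus strand, 168 bases from the lincRNA. The RefSeq starts lay 9 bases from the deposited one in 4833407H14Rik, 18 in Gm17586, 132 in F730016J06Rik and 342 in E230014E18Rik. Of the 21 members called for both stimuli against isotype, described further on, 10 had a window, 5 higher and 5 lower. Among these, A530010L16Rik, F930017D23Rik and Gm36161 held none of the sites searched.

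Gm26917, the most abundant member, lies at chr17:39843013-39846341 in a stretch with similarity to ribosomal RNA repeats. Levels per library are given as CPM scaled by TMM, which corrects library size for the composition of each library. Gm26917 stood at 3873, 13400 and 6524 CPM in the isotype libraries and 5094, 6762 and 1292 with the antibody. With IL-33 it stood at 7344, 10250 and 5838, and with both at 5138, 8792 and 2161. The groups overlapped throughout, and no comparison called it (smallest unadjusted p 0.165). The row CT010467.1, annotated rRNA and separated from Gm26917 by a few bases on the other strand, had its highest levels in the libraries where Gm26917 was lowest. It stood at 5566 CPM in antibody library 3 and 7996 in combined library 3, against 396 to 2160 in the other 10.

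Malat1 and Neat1 are nuclear RNAs that neighbour each other on chromosome 19; Malat1 sits in nuclear speckles and Neat1 is the scaffold of paraspeckles. Malat1 stood at 1841, 1500 and 2617 CPM in isotype and 2237, 2773 and 1445 with the antibody. It stood at 1843, 1881 and 2356 with IL-33 and at 1815, 1273 and 637 with both. The combined group reached lowest, in its library 3, and overlapped isotype: the log2 fold change was -0.68 (SE 0.34) with an adjusted p of 0.216 in edgeR's quasi-likelihood test. Neat1 was at 1347, 877 and 996 CPM in isotype and at 983, 271 and 2117 in the combined group. Those 3 libraries thus hold both the lowest and the highest Neat1 level of all 12, and the log2 fold change was 0.07 (SE 0.49, adjusted p = 0.950). The 20 proteins of paraspeckles examined gave no call in any of the 6 comparisons. For both stimuli against isotype, where 9.88% of all genes were called, their median log2 difference was 0.07 (all genes -0.05).

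Below these 3 in level, 1700020I14Rik stood at a mean of 218 CPM and 2900097C17Rik, the mouse Norad RNA that binds Pumilio proteins, at 201. 5031425E22Rik, divergent from Kmt2e at a gap of 172 bases, had 46.9 to 69.7 CPM over the 12 libraries, and Dubr 46.0 to 88.3. Over the members, 16 had a highest library below 2 times the lowest, 32 had one above 5 times, and the median ratio was 3.53. Per kb of exon the order differs: Gm26917 led with 1937 CPM per kb, before Malat1 with 269, Mir142hg with 218 and Gm10076 with 193, while Neat1, the longest, had 45.8, Norad 41.0 and AU020206 41.2.

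**Figure D2:**
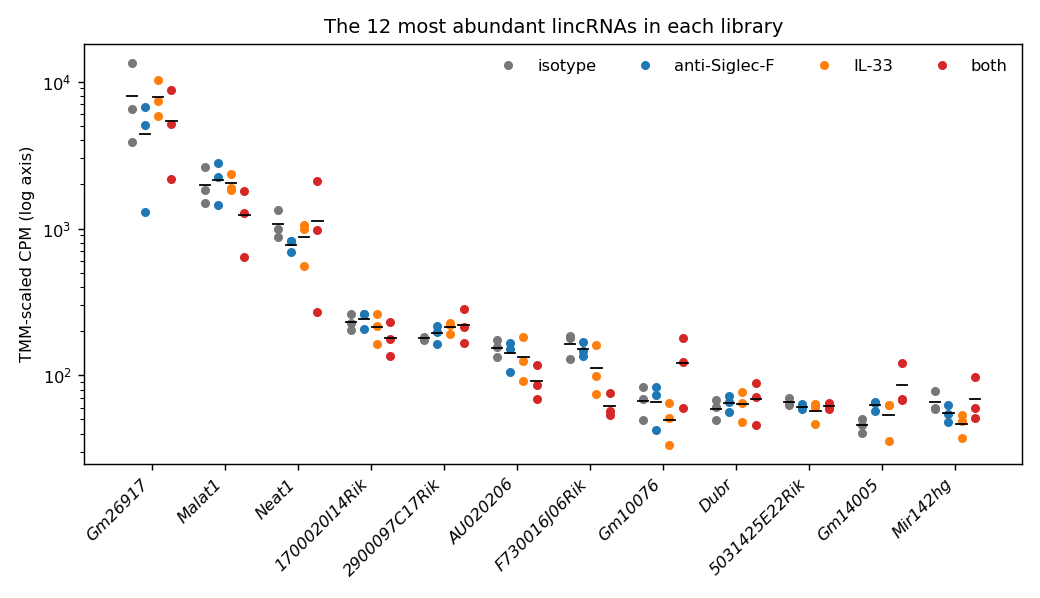
TMM-scaled CPM on a log axis of the 12 lincRNAs with the highest mean, 1 point per library and a line at each group mean. Gm26917 spread from 1292 to 13400 CPM, F730016J06Rik was lowest in combined libraries 2 and 3 (53.3 and 56.9), and Gm14005 was higher in each combined library than in isotype.

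Spread between libraries was wider for members than for coding genes at a mean of 3 CPM or more, which were not matched in level. The median SD of log2 CPM was 0.234 for members and 0.157 for coding genes in isotype, 0.280 and 0.179 with the antibody, 0.301 and 0.214 with IL-33, and 0.480 and 0.332 with both. Of the 139 members, 138 passed the expression filter; Gm42031 did not.

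The first comparison set IL-33 alone against isotype. E230014E18Rik, Gm10384, A430046D13Rik, Gm39556 and 4732465J04Rik fell, and no member rose. These were 5 of 138 members (3.62%), all lower, while 2.21% of all 14547 genes tested were called, 1.46% higher and 0.749% lower, and of the coding genes at a mean of 3 CPM or more 3.16%. The median log2 difference of the members was -0.20 (all genes -0.01), with 91 of 138 below 0.

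E230014E18Rik, an RNA of 859 bases at 3035 bases from Ckap4 and of unknown role, had 31.5, 29.0 and 27.0 CPM in isotype and 10.3, 11.3 and 13.6 with IL-33. With the antibody it lay in between, at 16.0, 18.7 and 22.2, and with both it stood at 9.28, 10.4 and 12.1. Each of these groups lay below all isotype libraries. The log2 fold change for IL-33 was -1.31 (SE 0.19, adjusted p = 0.00193).

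Gm10384 stood at 45.4, 35.8 and 40.4 CPM in isotype and at 17.3, 7.79 and 20.5 with IL-33, a log2 fold change of -1.41 (SE 0.30, adjusted p = 0.0259). A430046D13Rik, divergent from the myosin light chain gene Myl6b at 679 bases, stood at 24.4, 26.7 and 21.0 CPM in isotype and 11.5, 8.03 and 13.6 with IL-33 (log2 fold change -1.12, adjusted p = 0.0219). Gm39556, in the Ly6 gene cluster with Ly6e 18735 bases away, stood at 31.8, 39.3 and 33.2 CPM in isotype and 22.3, 18.7 and 16.97 with IL-33. Its log2 fold change was the smallest of the 5, at -0.84 (adjusted p = 0.0274). In each of these RNAs the groups did not overlap.

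4732465J04Rik, the member nearest to the rule's threshold, had 5.61, 4.21 and 3.37 CPM in isotype and 0.523, 0.787 and 1.54 with IL-33. Its group means were 4.40 CPM in isotype, 4.37 with the antibody, 0.949 with IL-33 and 2.16 with both. It passed the rule only through the groups where it was high, so its fall says nothing about the members as a set. Its log2 fold change was -2.21 (SE 0.47, adjusted p = 0.0262). With both stimuli it stood at 3.21, 1.43 and 1.84 CPM, where the call against isotype was not made (adjusted p = 0.158).

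The largest positive difference with IL-33, that of Gdap10, was not called (log2 fold change 2.47, SE 0.64, adjusted p = 0.0687). It was at 23.0, 9.75 and 15.4 CPM in isotype and at 146, 79.9 and 42.3 with IL-33, without overlap but with a wide spread. Equal replicate numbers paired the isotype and IL-33 libraries, with same-number correlations of 0.320, 0.489 and 0.302. With the replicate number as a block the count was 6 members over all libraries and 18 in a fit of these 2 groups alone. Leaving out isotype library 1, 2 or 3, or IL-33 library 1 or 2, left 1 call, E230014E18Rik, and leaving out IL-33 library 3 gave 9. Counts over all genes for these fits, with or without the block, are not given here.

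The antibody alone was compared with isotype next. No member was called by edgeR, as no gene was (0% of 14547). At an unadjusted p under 0.05 there were 4 members and 370 genes, and DESeq2 and limma voom also called no member. The smallest unadjusted value belonged to E230014E18Rik (log2 fold change -0.62, SE 0.18), whose levels are given above. Next came 4833407H14Rik, at 24.5, 26.7 and 46.2 CPM against 16.7, 13.1 and 16.5 (log2 fold change 1.07), and A630001O12Rik, at 11.8, 10.4 and 9.41 against 5.61, 3.47 and 5.17 CPM (1.14). All 3 had an adjusted p of 1 in edgeR.

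Both stimuli against isotype gave the largest set. Of 138 members, 21 were called (15.2%), 8 higher and 13 lower. Of all genes tested 9.88% were called, 5.47% higher and 4.41% lower, and of the coding genes at a mean of 3 CPM or more 13.7%. The median log2 difference was -0.28 for members, with 87 of 138 below 0, and -0.05 for all genes. With combined library 1 alone against isotype 9 members were called, 4 higher and 5 lower. Of these, 6 were among the 21: E230014E18Rik, Gm10384, 4833407H14Rik, Gdap10, 0610033M10Rik and A530010L16Rik. The other 15 had no call there.

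**Figure D3:**
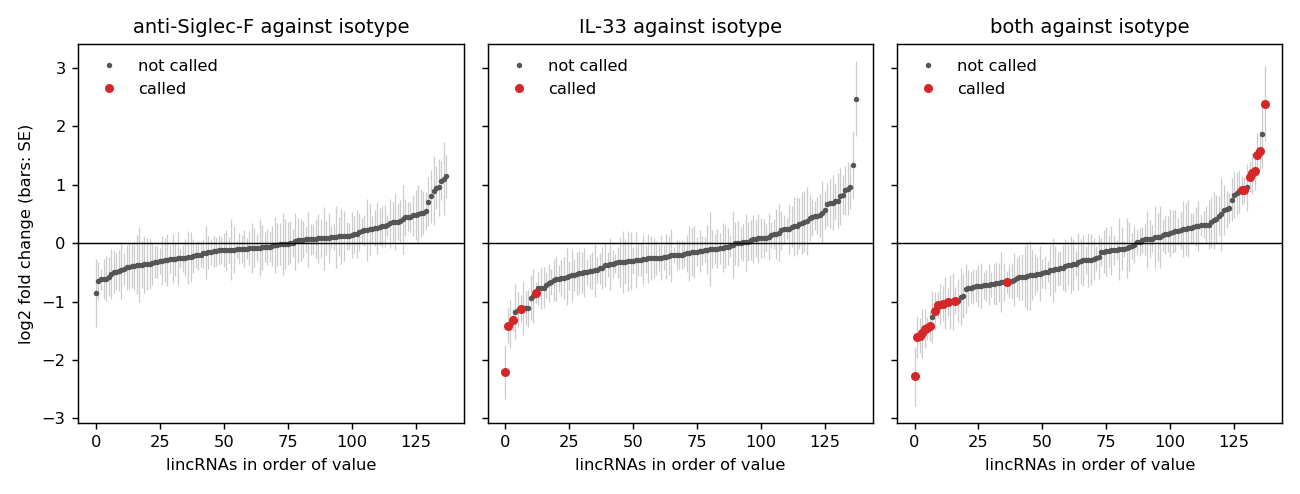
Log2 fold changes of the 138 lincRNAs tested, each panel sorted by value, with grey bars for the SE and red points for calls by edgeR at an adjusted p under 0.05. No point is red for the antibody, 5 are red for IL-33, all below 0, and 21 for both stimuli, 8 above and 13 below.

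Gdap10, at chr12:32821872-32826904 inside the body of Nampt, is a model of 2 exons that take 5003 of its 5033 bases. Its rise was the largest. It stood at 182, 30.0 and 41.4 CPM with both stimuli, all above the 3 isotype libraries, with a log2 fold change of 2.39 (SE 0.64, adjusted p = 0.0327). Library 1 set much of that mean: the call was not made without combined library 1 or without isotype library 1, 2 or 3, and with combined library 1 alone the adjusted p was 0.00279.

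4833407H14Rik, whose window is printed above, rose to 50.4, 40.0 and 48.4 CPM, a log2 fold change of 1.58 (SE 0.33, adjusted p = 0.0104). It kept its call without each library of the 2 groups in turn; with combined library 1 alone the adjusted p was 0.0396. It shares 67.5% of its exon bases with Mirt1 on the opposite strand, a lncRNA named for myocardial infarction. Mirt1 itself was not called, at 12.4, 6.94 and 11.3 CPM in isotype and 15.9, 5.22 and 17.03 with both, and reads over the shared bases cannot be told apart.

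Gm14005, or Morrbid, is a gene that spans 324447 bases of chromosome 2. It stood at 46.0, 50.7 and 40.4 CPM in isotype and at 64.6, 57.5 and 66.0 with the antibody. It stood at 62.6, 63.2 and 36.0 with IL-33 and rose to 68.6, 67.4 and 121 with both. The combined libraries lay above all isotype libraries (log2 fold change 0.91, SE 0.25, adjusted p = 0.0348). The call was not made without combined library 3, without any 1 isotype library, or with combined library 1 alone (adjusted p = 0.219).

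Gm31718 rose from 4.37, 4.65 and 6.90 to 12.6, 11.9 and 21.1 CPM (log2 fold change 1.52, adjusted p = 0.0182). Gm17586, in the divergent promoter of Mafg, rose from 8.49, 11.4 and 11.5 to 17.97, 21.9 and 19.1 CPM (0.91, adjusted p = 0.0191), while the antibody (9.56 to 12.6 CPM) and IL-33 (8.52 to 13.4 CPM) overlapped isotype. Gm36161 rose from 19, 23.0 and 22.9 to 37.0, 52.0 and 53.4 CPM (1.13, adjusted p = 0.0132). Gm43661 (1.23) and 5033430I15Rik (1.19), which starts 245 bases from Atxn1, were the remaining members that rose. Their roles are not known. All 5 had no call with combined library 1 alone (adjusted p from 0.0894 to 0.197). With 1 of the 6 libraries left out, the call was lost in 3 fits for Gm31718, 3 for Gm17586, 4 for 5033430I15Rik, 2 for Gm43661 and 1 for Gm36161. These fits include those without isotype library 1 in all 5, without isotype library 2 in Gm31718 and 5033430I15Rik, and without isotype library 3 in Gm17586, Gm43661 and 5033430I15Rik. They include those without combined library 2 in Gm17586 and without combined library 3 in Gm31718 and 5033430I15Rik.

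F730016J06Rik, the most abundant of the called members, lies 10592 bases from the ficolin gene Fcnb with the opposite orientation. It had 186, 128 and 180 CPM in isotype, 146, 169 and 135 with the antibody and 98.6, 74.8 and 162 with IL-33. With both stimuli it fell to 75.4, 53.3 and 56.9, below every isotype and antibody library (log2 fold change -1.41, SE 0.25, adjusted p = 0.00395). Fcnb itself was not called (-0.46), but at 0.0698 to 1.10 CPM over the 12 libraries its level is too low to set against the lincRNA. With combined library 1 alone the lincRNA was not called (adjusted p = 0.129).

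E230014E18Rik (log2 fold change -1.46, SE 0.19, adjusted p = 0.000519) and Gm10384 (-1.58, SE 0.30, adjusted p = 0.00573) fell with both stimuli to levels near those with IL-33 alone; Gm10384 stood at 10.4, 19.01 and 11.3 CPM. Like F730016J06Rik and 4833407H14Rik, they kept their call without each library of the 2 groups in turn. With combined library 1 alone the adjusted p was 0.00494 and 0.0238.

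Gm38171, a short RNA of 478 bases beside Prkcq, had the most negative log2 fold change, -2.28 (SE 0.50, adjusted p = 0.0131). It had 7.70, 5.10 and 9.09 CPM in isotype and 2.48, 0.252 and 1.70 with both. The call was not made without isotype library 1 or 3, with combined library 1 alone (adjusted p = 0.0704) or in a fit of the 2 groups only (adjusted p = 0.0722). Gm46378 fell from 6.46, 7.31 and 6.90 to 2.41, 1.51 and 2.79 CPM (-1.61), 0610033M10Rik from 7.83, 6.79 and 6.58 to 1.32, 3.62 and 2.38 CPM (-1.54), and 2310034O05Rik from 5.16, 4.21 and 5.57 to 2.63, 1.60 and 1.16 CPM (-1.47). The call of 0610033M10Rik was lost in 5 of 6 fits with 1 library left out, all except that without combined library 2. That of 2310034O05Rik was lost without isotype library 1 or 3, and that of Gm46378 without isotype library 3. With combined library 1 alone the adjusted p was 0.245 for 2310034O05Rik and 0.128 for Gm46378. The remaining 6 of the 13 had log2 fold changes from -1.16 (Gm26581) to -0.66 (Gm39556). Leaving out isotype library 1, 2 or 3 gave 5, 13 and 8 called members in place of 21, and leaving out combined library 1, 2 or 3 gave 30, 24 and 14. Counts over all genes for these fits are not given here, so they describe the dependence on single libraries only.

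**Figure D4:**
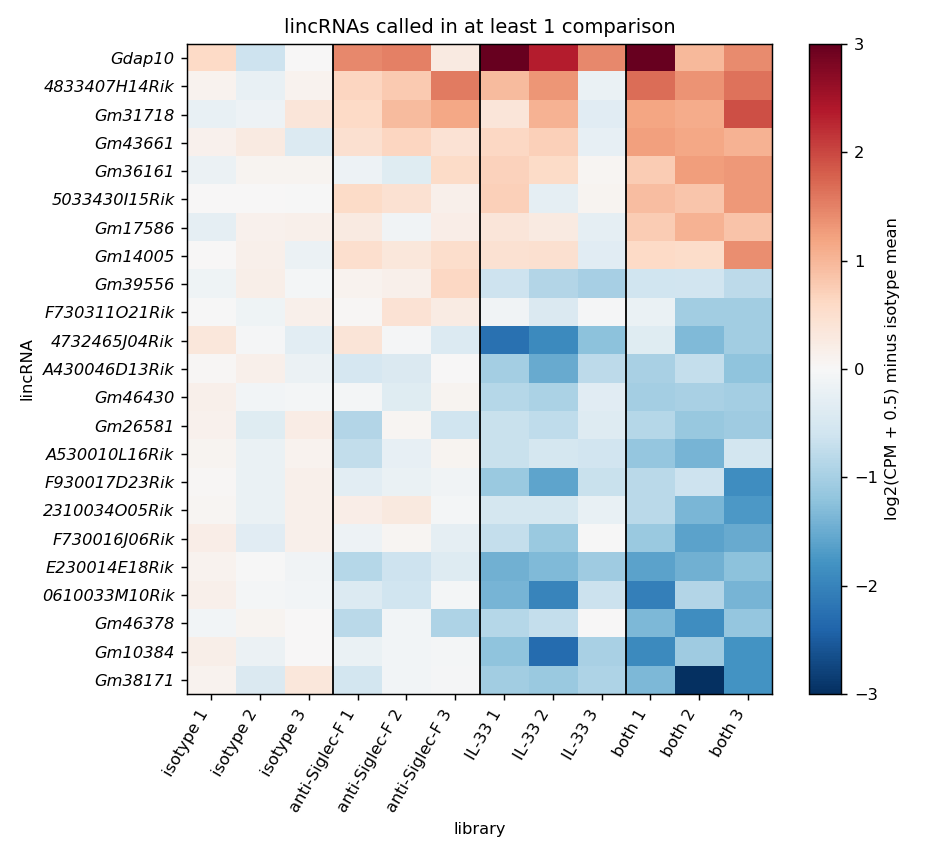
Each of the 23 lincRNAs called in at least 1 comparison, as log2(CPM + 0.5) minus its mean in isotype, with 1 column per library and colours that end at -3 and 3. The 8 that rose with both stimuli lie in the upper rows and those that fell in the lower ones; antibody columns lie nearer to 0 than the combined ones.

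The combined group was then compared with IL-33 alone, where the groups differ by the antibody. No member and no gene was called by edgeR (0% of 14547), with 27 members and 2526 genes at an unadjusted p under 0.05. DESeq2 called 4 members and limma voom none. Leaving out combined library 1 gave 17 calls of members. Counts over all genes for these alternatives are not given here, so they are no result about lincRNAs. The 3 members with the smallest p had the same adjusted p of 0.191. They were Gm17586 (log2 fold change 0.77), Gm10076 (1.28) and F730016J06Rik (-0.85). Gm10076 is a single-exon model of 384 bases that stood at 50.9, 65.1 and 33.7 CPM with IL-33 and at 59.5, 124 and 181 with both. Its rank among combined libraries followed the share of ribosomal protein counts, which was 1.72%, 3.21% and 3.68%; the part of that share was not tested.

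Set against the antibody alone, the combined group differs by the cytokine. Of 138 members 9 were called (6.52%), 1 higher and 8 lower, against 4.42% of all genes, 2.7% higher and 1.72% lower. Gm36161 rose, from 19.2, 16.7 and 32.1 to 37.0, 52.0 and 53.4 CPM (log2 fold change 1.06, adjusted p = 0.0319). The 8 that fell were Gm38171 (-2.02), 2310034O05Rik (-1.62), Gm10384 (-1.46), F730016J06Rik (-1.28), Gm39556 (-0.97), F730311O21Rik (-0.97), Gm46430 (-0.94) and E230014E18Rik (-0.84). F730311O21Rik, 1 of the 9 members with a PU.1 site in its window, had 31.5, 42.2 and 36.6 CPM with the antibody and 26.7, 14.7 and 14.9 with both. It was the only 1 of the 9 calls that was not also made against isotype, with which this comparison shares the combined libraries.

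The calls of that comparison rested on few libraries. With combined library 1 alone none of the 9 was called (adjusted p from 0.0604 to 0.592), and the 1 call there was another member. Leaving out antibody library 1, 2 or 3 gave 1, 1 and 3 calls, leaving out combined library 1, 2 or 3 gave 25, 5 and 3, and leaving out isotype library 3 gave 5. Counts over all genes for these fits are not given here.

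In the interaction term the antibody's effect with IL-33 was compared with its effect without it. No member and no gene was called by edgeR (0% of 14547), and neither DESeq2 nor limma voom called a member. At an unadjusted p under 0.05 there were 12 members and 1150 genes. The smallest p belonged to Gm26514 (log2 difference -2.02), AC125351.1 (-1.10) and Gm45250 (-1.33), each with an adjusted p of 0.583. All 3 were lowest in combined libraries 2 and 3: AC125351.1, for instance, had 52.7, 28.9 and 25.2 CPM there against 50.2 to 86.6 elsewhere.

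Members were then set beside the nearest coding gene, since several lncRNAs act on a gene next to them. For both stimuli against isotype, 95 members had a tested neighbour within 50 kb. The 2 differences had the same sign in 61 of the 95. In 4 of the 95 pairs both were called, all 4 upwards, while the member was called in 17 pairs and the neighbour in 12. Of coding genes at a mean of 3 CPM or more 13.7% were called, and of all genes 9.88%. No share of same signs was computed for other pairs of genes, and an action of members on neighbours was not tested. In the 13 other pairs with a called member the neighbour was not called, among them Ckap4 beside E230014E18Rik (-0.46, adjusted p = 0.208) and Atxn1 beside 5033430I15Rik (-0.08).

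Bcl2l11, which encodes the death factor Bim and lies 15772 bases from Morrbid in convergent orientation, rose with it. It stood at 42.5, 33.2 and 36.7 CPM in isotype and at 133, 53.1 and 88.2 with both (log2 fold change 1.29, SE 0.31, adjusted p = 0.0189). The libraries differed in order: Bcl2l11 was highest in combined library 1 and Morrbid in library 3. With IL-33 alone Bcl2l11 stood at 93.3, 97.9 and 46.2 CPM and Morrbid at 62.6, 63.2 and 36.0.

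Nampt, the enzyme that makes nicotinamide mononucleotide for the salvage of NAD, contains Gdap10 on the same strand. No Nampt exon base lies within the lincRNA's body, so intronic reads of Nampt and reads of Gdap10 cannot be told apart there. Nampt stood at 172, 117 and 112 CPM in isotype, 300, 244 and 235 with the antibody, 902, 678 and 287 with IL-33 and 1375, 496 and 1351 with both. Its log2 fold change with both was 3.01 (adjusted p = 0.000929). In combined library 3 Nampt stood near library 1 while Gdap10 did not, at 41.4 against 182 CPM.

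Mafg rose from 300, 360 and 285 to 951, 478 and 729 CPM with both (log2 fold change 1.19, adjusted p = 0.0108). With IL-33 it stood at 690, 594 and 372 CPM, above isotype, where its divergent partner Gm17586 overlapped isotype. Tomm20, a receptor of the mitochondrial outer membrane 22452 bases from Gm31718, rose from 51.7, 56.1 and 47.3 to 69.7, 93.0 and 134 CPM (0.94, adjusted p = 0.0128). Dusp5, a phosphatase of ERK that lies 66386 bases from 4833407H14Rik and is named here after its values were seen, rose from 63.9, 57.9 and 72.4 to 362, 178 and 257 CPM (2.04, adjusted p = 0.00344).

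**Figure D5:**
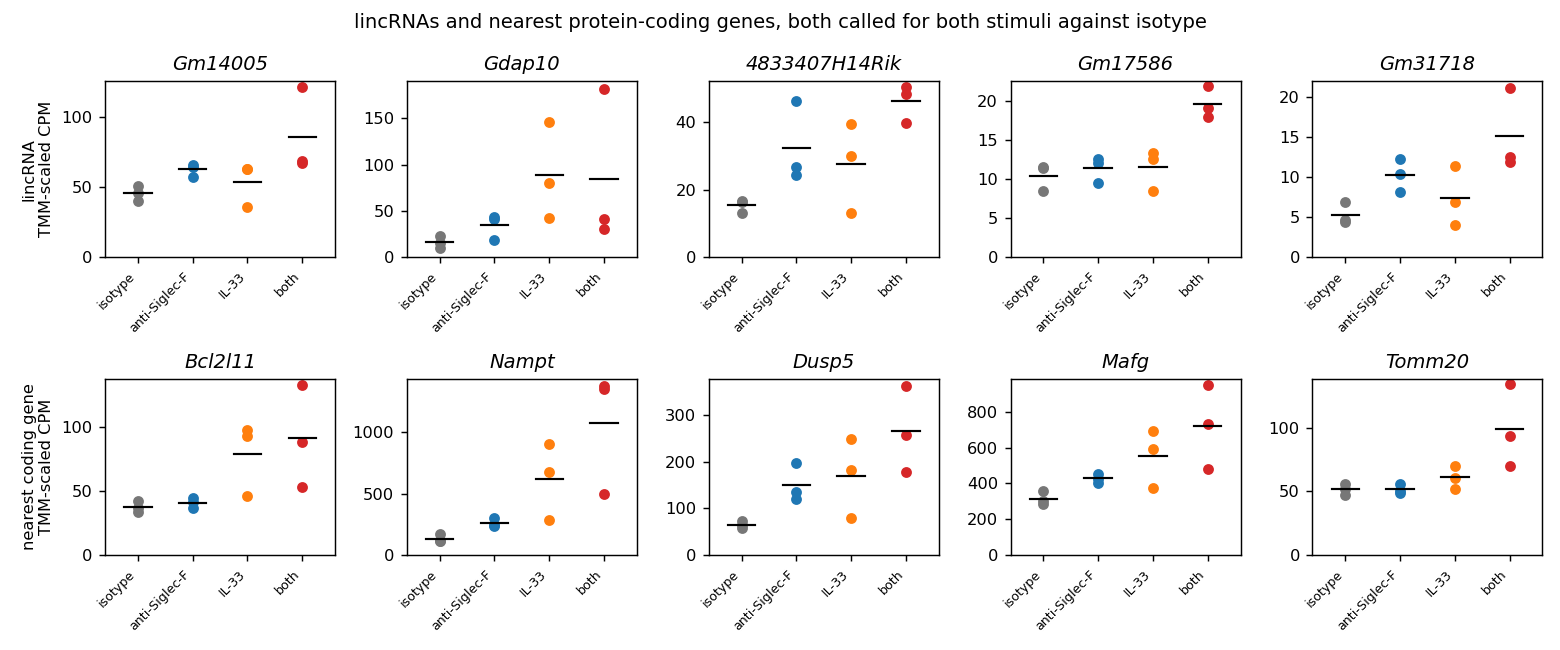
TMM-scaled CPM of 5 lincRNAs (top) and their nearest coding genes (bottom), 1 point per library with a line at each group mean; each axis starts at 0. Every combined library lies above the 3 isotype libraries in all 10 panels, while the order of the 3 combined libraries differs within pairs such as Gm14005 and Bcl2l11. The pairs were chosen because both genes were called for both stimuli against isotype, so the choice itself favoured separate groups. Of all genes tested, 27.2% had combined and isotype libraries without overlap.

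Other neighbours moved without a call of the lincRNA. Their pairs were picked after the values were seen. Cd55, which shields cells from complement, rose from 44.6, 38.1 and 32.1 to 126, 100.4 and 119 CPM with IL-33 (log2 fold change 1.59, adjusted p = 0.000364), while Gm15675 at 1836 bases had a log2 fold change of 0.72 (adjusted p = 0.312). Cebpb, a transcription factor of inflammatory genes, rose with both stimuli (1.33, adjusted p = 0.0122), while A530013C23Rik at 759 bases had 0.57 (adjusted p = 0.436). Lyn, a Src family kinase, rose by 0.63 on the log2 scale (adjusted p = 0.0100), while Gm26857 on its opposite strand had -0.06.

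Known lncRNAs of immune cells were taken from a list of 23 symbols, 17 of them in the table, 9 tested and 4 members. The 4 members were Morrbid, Norad, Mirt1 and Lncpint. For both stimuli against isotype 2 of the 9 were higher and none lower, beside 5.47% higher and 4.41% lower of all genes. The median log2 difference of the 9 was 0.32 (all genes -0.05). The 2 that were higher were Morrbid and Ptgs2os2, a lincRNA row below the rule's level. It lies at chr1:150159043-150164948 on the strand opposite to Ptgs2, which ends at base 150108227 and is not overlapped. Ptgs2os2 stood at 1.18, 0.960 and 0.470 CPM in isotype and 2.12, 3.37 and 2.38 with both (log2 fold change 1.57, adjusted p = 0.0471). Norad stood at 175, 183 and 180 CPM in isotype and 282, 215 and 167 with both, which overlap (0.30, adjusted p = 0.312). Lncpint, a p53-induced RNA, had -0.37 (adjusted p = 0.675).

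MicroRNA host RNAs among the members included Mir142hg and Mir17hg. RefSeq placed 18 mature microRNAs inside 5 members: 11 in Mir17hg, 2 each in Mir142hg, Snhg20 and 6720427I07Rik, and 1 in 2900076A07Rik. The mature forms were not measured here. Sequences are shown for the arms of Mir142hg, the most abundant host, and for the seed-sharing pairs of Mir17hg, with the seed (bases 2 to 8) in capitals; miR-17-5p shares its seed with miR-20a-5p, and miR-19a-3p with miR-19b-3p.
mmu-miR-142a-5p: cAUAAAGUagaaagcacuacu
mmu-miR-142a-3p: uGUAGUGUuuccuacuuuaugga
mmu-miR-17-5p: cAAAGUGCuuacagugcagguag
mmu-miR-20a-5p: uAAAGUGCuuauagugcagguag
mmu-miR-19a-3p: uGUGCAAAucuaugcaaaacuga
mmu-miR-19b-3p: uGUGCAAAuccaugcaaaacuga

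Mir142hg, host of a microRNA found across blood cells, stood at 58.8, 78.2 and 60.1 CPM in isotype, 48.2, 54.1 and 62.7 with the antibody, 49.2, 53.4 and 37.5 with IL-33 and 51.2, 59.6 and 97.1 with both. The IL-33 libraries lay below all isotype libraries, but the difference was not called (log2 fold change -0.49, adjusted p = 0.367). Mir17hg stood at 19.9, 17.8 and 19.3 CPM in isotype and at 9.72, 10.3 and 31.7 with both (-0.14). Of the 6 host RNAs tested from the list of 16, 1 was called for both stimuli against isotype, beside 9.88% of all genes. This was Mir22hg, which the table annotates as a processed transcript and which is no member (log2 fold change 1.35, adjusted p = 0.0380). It stood at 33.6, 32.4 and 24.9 CPM in isotype and at 70.4, 36.9 and 125 with both, so combined library 2 lay close to isotype.

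Hosts of small nucleolar RNAs, which release these guides of ribosomal RNA modification from their introns, had no call among 12 tested in any comparison. For both stimuli against isotype, where 9.88% of all genes were called, 11 of the 12 had a positive difference (6780 of all 14547 genes). Their median was 0.34 on the log2 scale (all genes -0.05). In each of the 12, combined library 3 was the highest of the combined libraries. Gas5 stood at 24.1, 17.5 and 71.0 CPM with both, against 31.9 to 35.8 in isotype. Snhg1 stood at 9.72, 12.9 and 35.7 CPM, against 7.70 to 14.4. Snhg8 lay above isotype in each combined library, at 8.77, 10.0 and 19.7 CPM against 6.58 to 7.70. The 3 members among them were Snhg6 (0.96, adjusted p = 0.146), Snhg12 (0.47) and Snhg20 (0.24). Snhg20 reached 41.6 CPM in combined library 3, against 8.11 and 13.96 in libraries 1 and 2 and 15.3 to 23.5 in isotype. The nuclear exosome, which degrades many unstable noncoding RNAs, had 1 call among 18 genes tested, that of Exosc2, a subunit of its cap. It was made for both stimuli against isotype, where 9.88% of all genes were called, and in no other comparison. Exosc2 stood at 9.01, 10.0 and 10.6 CPM in isotype and at 11.9, 22.6 and 21.9 with both (log2 fold change 0.93, adjusted p = 0.0437). For Exosc2, Mir22hg and Ptgs2os2, none of them a member, whether the call holds with a library left out is not given here.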

How the data were processed

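RNA sequencing was done on 12 libraries in 4 groups of 3, and groups were taken from the sample titles. The authors deposited raw counts per gene as whole numbers, with gene identifiers, coordinates and biotypes, in 1 table; a deposited normalized table was not used. The tools named are STAR 2.6.1d and featureCounts 1.5.0-p3, besides FastQC 0.11.8, fastp and DESeq2, with the build mm10, all per the submitters' processing notes. No source used here gives the annotation release, the strand setting or any poly(A) selection. Per the labels' protocols libraries were made with the NEBNext Ultra RNA kit.

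All 14547 genes that passed filterByExpr were fitted in 1 edgeR 4.0.16 quasi-likelihood model (R 4.3.3) with TMM scaling, all 12 libraries and no block. Benjamini-Hochberg adjustment ran over all genes tested within each of 6 comparisons, and an adjusted p under 0.05 was called. DESeq2 1.42.0, limma 3.58.1 (voom with sample weights), other filters, scalings, blocks and left-out libraries were the alternatives. The test was run on simulated counts before use. Scaling alternatives moved the median of all genes by at most 0.04 (log2). Libraries of a group differed by more than sampling noise.

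The members and lists were chosen with earlier results of these data known. Named are the 12 most abundant members, up to 6 called members in each direction per comparison, the 3 smallest p where none was called, list members, neighbours within 50 kb of these, RNAs beside the threshold and called genes of the paraspeckle and exosome lists. Same-number libraries were taken as paired where every correlation of their deviations from group means (7902 genes) exceeded 0.1, which held for IL-33 against isotype alone. For the antibody against isotype the correlations were 0.444, -0.233 and 0.123. Yet Epx followed the replicate number in these groups, at 666, 289 and 130 CPM in isotype and 670, 271 and 118 with the antibody. Whether same-number libraries share an origin was not tested, so the rule does not show that other groups are unpaired.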

Additional observations from a re-analysis of the deposited data

How the results depend on the processing

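Under 6 settings for the whole fit the number of called lincRNAs moved by more than 1.5 times in some comparison. For IL-33 against isotype (5 calls) it was 9 with DESeq2, 11 without an expression filter, 24 with limma voom, 11 without combined libraries 2 and 3, 8 with only the groups compared, and 18 with those and a replicate block, an alternative chosen after seeing the data. For both against isotype (21) it was 9 without combined libraries 2 and 3, 11 with only the groups compared and 13 with those and the block. For both against the antibody (9) it was 15 with DESeq2, 21 without a filter, 5 with voom, 1 without combined libraries 2 and 3, 2 with only the groups compared and 3 with those and the block. Without a filter 2 were called for the antibody against isotype, 10 for both against IL-33 and 3 for the interaction, and DESeq2 called 4 for both against IL-33. A replicate block over all 12 libraries gave 6, 0, 19, 0, 9 and 0 calls for IL-33, the antibody and both against isotype, both against IL-33, both against the antibody, and the interaction. Leaving out 1 library gave 1 to 9, 0 to 0, 5 to 30, 0 to 17, 1 to 25 and 0 to 0 in that order. Counts over all genes under these settings are not given here, so the numbers describe the dependence on settings only. The cause of these moves was not tested. Without combined libraries 2 and 3 that group is 1 library, taken to vary like the others. Of 770 repeats of the 35 single calls, 569 stayed called, 201 lost the call and 0 changed sign. A threshold of 1 or 10 mean CPM in place of 3 gave 292 or 53 lincRNAs, and start distance in place of gap kept the nearest gene of 108 of 139. At the smallest totals a member at 3 CPM rests on few counts, which limits the precision of its fold change.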

Other observations

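Gm42031 (chr8:85125872-85132289) was the member that did not pass the expression filter. It had 577 counts in isotype library 3 and 598 in antibody library 3, 1 count in antibody library 2, and 0 in the other 9 libraries. Its level was thus 47.9 and 39.7 CPM of the library totals in those 2 libraries, which are in different treatment groups and share the replicate number 3. Gm35279, a lincRNA below the rule's level that was picked after its values were seen, had 38 and 69 counts in the same 2 libraries and at most 2 in any other. A mean over libraries places Gm42031 among the expressed lincRNAs although 9 of 12 libraries hold no count of it.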
